A study of Mus musculus with 14 samples.

Results

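The genes described here are 8 members of the NLRP family that mouse oocytes express outside the subcortical maternal complex: Nlrp4a, Nlrp4b, Nlrp4c, Nlrp4e, Nlrp9a, Nlrp9b, Nlrp9c and Nlrp14. They were chosen by gene symbol, and all 8 were found among the 16196 genes that both deposited count tables hold. RNA was sequenced from ovulated oocytes and from germinal vesicle (GV) oocytes, which are arrested in the first meiotic prophase. There were 3 ovulated CKO, 3 ovulated WT, 4 GV CKO and 4 GV WT libraries. CKO oocytes had the genotype Mff fl/fl; Gdf9-Cre, and WT oocytes were Mff fl/fl without the Cre transgene, so that both carried the floxed Mff allele. Mff encodes a receptor of the mitochondrial outer membrane that recruits the fission GTPase DRP1, and Gdf9-Cre is active in oocytes from early follicles on, long before either stage was collected. The sources used here do not state animal age or how many oocytes and animals lie behind a library, and p-values accordingly describe the spread among libraries, which may be technical.

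NLRP proteins carry an amino-terminal pyrin domain, a nucleotide-binding NACHT domain and carboxy-terminal leucine-rich repeats. Some members build inflammasomes in immune cells, while a larger set, expanded in rodents, is expressed mainly in germ cells. In the growing mouse oocyte the transcripts of these genes are laid down and stored, transcription then stops, and much of the stored mRNA is degraded between the GV stage and ovulation. NLRP14 is needed in the egg for the first cleavages of the mouse embryo, where it has been reported to hold UHRF1 in the cytoplasm. NLRP9B is known from the mouse intestine, where it forms an inflammasome on viral RNA bound by DHX9, and human NLRP4 has been reported to bind Beclin 1 and to lower TBK1 through DTX4.

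All 8 genes lie on mouse chromosome 7 (RefSeq positions, GRCm38.p6). From the centromeric end, Nlrp4c lies at chr7:6045161-6105149, Nlrp4b at chr7:10687793-10730168, Nlrp9b at chr7:19991393-20062942 and Nlrp4e at chr7:23301192-23362277, each on the plus strand. Nlrp9c at chr7:26364691-26403700, on the minus strand, Nlrp4a at chr7:26435113-26476142 and Nlrp9a at chr7:26535023-26574148 stand next to each other with gaps of 31.4 and 58.9 kb between them. Nlrp14 lies far from the rest, at chr7:107113455-107198103. Each gene has 9 to 11 exons in its longest protein-coding transcript, which is 3216 to 4259 bases long (GENCODE M21).

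The promoter windows fell into alike and unlike ones, and the alike ones are shown because they set genes far apart in level (Nlrp4c against Nlrp4a and Nlrp4b) beside genes close in level (Nlrp9a and Nlrp9c). RefSeq windows of 300 bases (250 before and 50 after the start, written 5′ to 3′ on the strand of the gene, GRCm38.p6) were found for 7 of the 8 genes, all but Nlrp14. The windows of Nlrp4c, of the first listed start of Nlrp4b and of the second listed start of Nlrp4a resembled each other, with 80.5% identity over 257 bases between Nlrp4c and Nlrp4b, 78.3% over 263 bases between Nlrp4c and Nlrp4a, and 80.4% over 275 bases between Nlrp4b and Nlrp4a. Those of Nlrp9a and Nlrp9c were 93.8% identical over 240 bases and shared a run of 106 bases. Capitals mark the letters CCAAT, read on either strand, and CAGCTG, which reads the same on both strands.
Nlrp4c, chr7:6044911-6045210, plus strand: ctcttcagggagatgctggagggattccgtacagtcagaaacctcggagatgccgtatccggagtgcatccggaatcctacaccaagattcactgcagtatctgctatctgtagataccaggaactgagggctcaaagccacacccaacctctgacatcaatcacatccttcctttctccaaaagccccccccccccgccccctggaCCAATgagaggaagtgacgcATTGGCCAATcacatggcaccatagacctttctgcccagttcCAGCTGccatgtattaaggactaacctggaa
Nlrp4b, chr7:10687543-10687842, plus strand: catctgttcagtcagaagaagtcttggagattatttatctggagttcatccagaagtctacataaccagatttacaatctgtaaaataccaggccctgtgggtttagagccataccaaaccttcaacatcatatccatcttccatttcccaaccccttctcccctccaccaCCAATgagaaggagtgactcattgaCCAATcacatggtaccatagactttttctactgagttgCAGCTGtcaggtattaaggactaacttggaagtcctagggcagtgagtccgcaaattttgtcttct
Nlrp4a, chr7:26435364-26435663, plus strand: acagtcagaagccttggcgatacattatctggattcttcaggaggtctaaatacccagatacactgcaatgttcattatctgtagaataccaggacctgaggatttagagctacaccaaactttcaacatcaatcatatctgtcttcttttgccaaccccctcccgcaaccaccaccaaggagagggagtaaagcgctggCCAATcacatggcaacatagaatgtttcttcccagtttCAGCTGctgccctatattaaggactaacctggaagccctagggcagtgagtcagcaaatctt
Nlrp9c, chr7:26403651-26403950, minus strand: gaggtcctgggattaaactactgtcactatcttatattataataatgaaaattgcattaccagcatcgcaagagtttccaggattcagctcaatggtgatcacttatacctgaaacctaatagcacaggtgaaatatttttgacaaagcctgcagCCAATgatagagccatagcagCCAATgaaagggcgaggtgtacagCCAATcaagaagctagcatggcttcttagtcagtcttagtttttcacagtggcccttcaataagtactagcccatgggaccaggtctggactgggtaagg
Nlrp9a, chr7:26534773-26535072, plus strand: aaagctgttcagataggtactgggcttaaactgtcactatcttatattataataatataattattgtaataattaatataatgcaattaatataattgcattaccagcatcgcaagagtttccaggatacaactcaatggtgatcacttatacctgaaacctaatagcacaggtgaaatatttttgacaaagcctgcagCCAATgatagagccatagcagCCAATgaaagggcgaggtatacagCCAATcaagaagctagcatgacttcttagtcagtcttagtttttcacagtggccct

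CCAAT was present 3 times in the windows of Nlrp4c, Nlrp9a and Nlrp9c, against 37.4% of all 32851 RefSeq windows with at least 1 match on either strand and 3.37% with 3 or more. The Nlrp9a and Nlrp9c windows share most of their sequence, so their matches are not independent. The Nlrp4b window held 2 matches and that of the second start of Nlrp4a held 1. The window of the first listed start of Nlrp4a, not printed, held none and aligned with that of Nlrp4c over only 24 bases. Which start oocytes use was not tested. In all 3 printed Nlrp4 windows the CCAAT nearest to the start was the beginning of a longer shared run, CCAATCACATGG. This motif was noticed in these sequences and then searched on both strands, so its matches in them were given in advance. It was held by 7 of 32851 windows (0.0213%), of which 4 belonged to Nlrp4a, Nlrp4b and Nlrp4c. The windows of both listed Nlrp4b starts overlap by 272 bases and hold the same site. CAGCTG, an E-box, stood once in each of the 3 printed Nlrp4 windows and in 16.3% of all windows. It also stood once in the unprinted windows of Nlrp4e and of the first listed Nlrp4a start, so it did not set the alike Nlrp4 windows apart. The windows of Nlrp9a, Nlrp9b and Nlrp9c had no match. The windows of Nlrp4e and Nlrp9b, not printed, had no stretch of more than 50 aligned bases in common with any other member's window. For Nlrp9b the window (chr7:20007773-20008072) lies inside the gene as placed above, so its annotated start was not compared.

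Depth was similar throughout, with 26575593 to 28847424 counts per library. Mff itself, in CPM (counts scaled to library size, here with TMM factors over all 14 libraries), was at 31.3 to 54.4 CPM in ovulated CKO and 304 to 688 CPM in ovulated WT libraries, and at 30.1 to 47.2 CPM in GV CKO and 477 to 945 CPM in GV WT libraries. Which exons the floxed allele removes is not stated in the labels. In GV oocytes, WT library 2 and CKO libraries 1 and 2 stood apart from the other 5 on principal component 1 (43.8% of the variance), and their 100 most abundant genes took 35.2% to 42.4% of the counts, against 48.2% to 51.1% in the others. Among ovulated oocytes the first component, with 50.3% of the variance, separated the genotypes, and CKO library 2 and WT library 3 lay at its ends. Summed oocyte markers were at 14894 to 30069 CPM in every library, granulosa and cumulus markers at 52.7 to 120 CPM, and blood, immune and stromal markers at 23.5 to 139 CPM, on library totals. The granulosa and cumulus sums rest on 15 genes in the ovulated and 18 in the GV table. Those of blood, immune and stromal markers rest on 8 and 12. Cyp19a1 alone had means of 47.3 CPM in ovulated CKO, 75.6 in ovulated WT, 44.8 in GV CKO and 50.9 in GV WT oocytes. The blood, immune and stromal sums were 54.9 to 104 CPM in ovulated CKO, 82.6 to 139 CPM in ovulated WT, 24.9 to 42.7 CPM in GV CKO and 23.5 to 43 CPM in GV WT libraries. Pecam1 made up most of them, with means of 54.3, 94.9, 29.4 and 31.1 CPM in those groups. Over the CKO course 1 of the 4 genes of this list that were tested had a positive fold change (median -0.39), and over the WT course 3 of 4 (median 1.00). Of 12 granulosa and cumulus markers tested, 6 were called lower and 2 higher in each course. Of all genes tested, 31.2% were lower in the CKO and 36.2% in the WT course. Cyp11a1 averaged 1.9 CPM in ovulated CKO, 1.34 in ovulated WT, 13.2 in GV CKO and 11.3 in GV WT oocytes. Kitl, among those that rose, averaged 7.82, 9.69, 2.67 and 2.61 CPM in the same order. Ptprc and Cd3e were at 0 in every GV WT library and Hbb-bt in every CKO library. The part of these cell types in the stage differences was not tested.

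The 8 genes covered a wide range of levels, with Nlrp14 on top in all 4 groups. Per unit length (deposited FPKM, fragments scaled by transcript length and library size, mean ± SD), Nlrp14 stood at 629 ± 146 in ovulated CKO, 364 ± 42.7 in ovulated WT, 1821 ± 449 in GV CKO and 1963 ± 222 in GV WT oocytes (n = 3, 3, 4 and 4). It ranked 131st, 216th, 50th and 48th in those groups among the 16509 genes of the ovulated and the 18194 genes of the GV table. At the other end, Nlrp4c had 6.58 ± 0.957, 6.88 ± 0.133, 5.13 ± 0.866 and 5.58 ± 1.14 FPKM in the same order of groups, and Nlrp4e had 46 ± 12.4, 43.4 ± 12.2, 38.1 ± 9.97 and 43.3 ± 10.5 FPKM. The other members, Nlrp4a, Nlrp4b, Nlrp9a, Nlrp9b and Nlrp9c, had group means between 60.5 and 334 FPKM.

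The order of levels per unit length differed between the stages. In ovulated CKO oocytes it ran Nlrp14, Nlrp9c, Nlrp4a, Nlrp9a, Nlrp4b, Nlrp9b, Nlrp4e and Nlrp4c, and only Nlrp9a (159 to 181 FPKM) and Nlrp4b (139 to 194 FPKM) overlapped as neighbours. In ovulated WT oocytes it ran Nlrp14, Nlrp9c, Nlrp4b, Nlrp4a, Nlrp9a, Nlrp9b, Nlrp4e and Nlrp4c, with overlapping ranges between neighbours among the first 4 and none from Nlrp4a downward. GV oocytes of both genotypes had Nlrp14 far ahead. Then came 5 genes whose neighbours overlapped, in the order Nlrp9c, Nlrp4b, Nlrp9a, Nlrp4a and Nlrp9b in GV CKO oocytes and with Nlrp4b before Nlrp9c in GV WT oocytes. Nlrp4e and Nlrp4c followed, each below the range of the gene before it. The promoter window of Nlrp4c resembles that of Nlrp4a only at the second listed Nlrp4a start. Within a library, Nlrp4a exceeded Nlrp4c by 30.9 to 35.2 times in ovulated CKO and 36.5 to 37.3 times in ovulated WT oocytes (ratio of FPKM). At the GV stage the ratio was 24.7 to 48.9 in CKO and 25.7 to 38.7 in WT oocytes. Nlrp9c and Nlrp9a, the other pair with alike windows, were much closer, at ratios of 1.68 to 2.12, 1.73 to 1.83, 1.22 to 1.41 and 1.08 to 1.21 in the same order of groups.

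**Figure D1:**
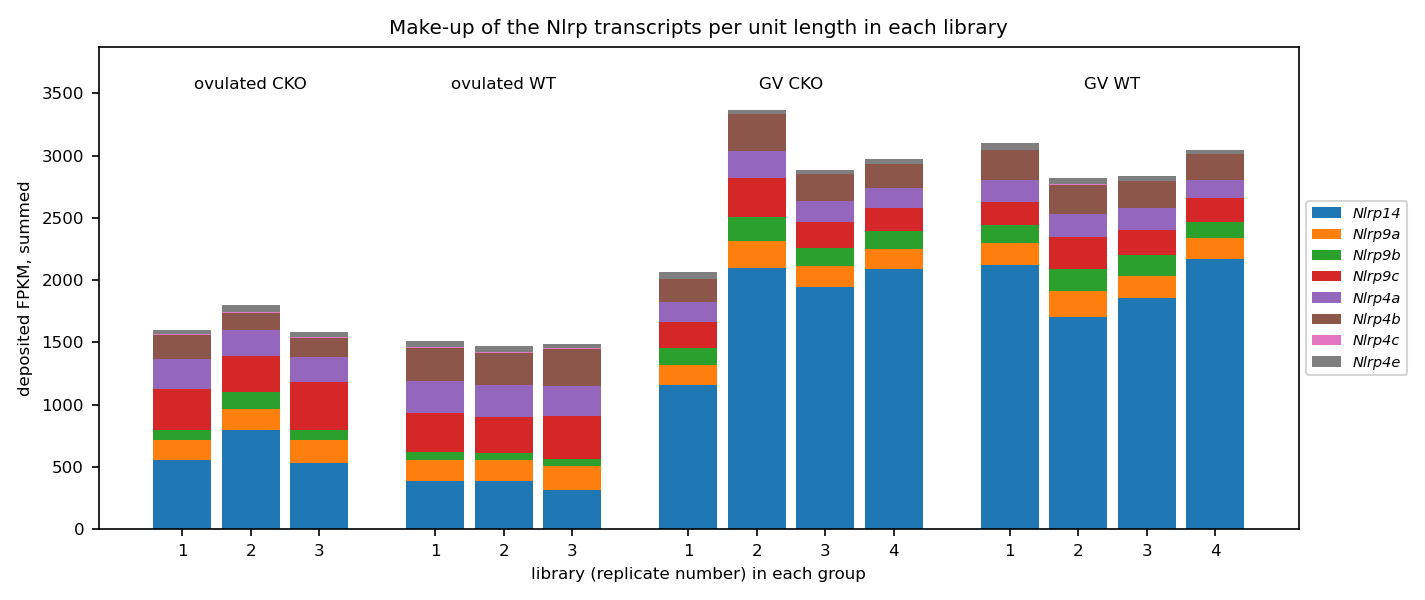
Deposited FPKM of the 8 Nlrp genes, stacked, in each of the 14 libraries; each bar is 1 library with its replicate number below. Nlrp14 makes up 33.7% to 44.2% of the bar in ovulated CKO, 21.2% to 26.4% in ovulated WT, 56% to 70.4% in GV CKO and 60.4% to 71.3% in GV WT libraries.

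Together the 8 genes took 0.498% to 0.567% of all counts in ovulated CKO libraries, 0.468% to 0.484% in ovulated WT, 0.643% to 1.02% in GV CKO and 0.865% to 0.94% in GV WT libraries. Nlrp14 alone made up 37.6% ± 5.77 of their summed FPKM in ovulated CKO oocytes and 24.5% ± 2.84 in ovulated WT oocytes (SD, n = 3 each), and 64% ± 6.32 in GV CKO and 66.4% ± 4.68 in GV WT oocytes (SD, n = 4 each). The libraries of the genotypes did not overlap in this share at the ovulated stage and did overlap at the GV stage, as the stacked bars show. Summed FPKM of the 4 Nlrp4 genes was 431 ± 36.7 in ovulated CKO and 578 ± 6.03 in ovulated WT oocytes (SD, n = 3 each), again without overlap. Most of this sum is Nlrp4a (215 FPKM in CKO and 254 in WT) and Nlrp4b (162 and 273), while Nlrp4e (46 and 43.4) was not lower in CKO oocytes. Of all single genes tested at this stage, 28.5% did not overlap between genotypes on CPM. For the 3 Nlrp9 genes the sums were 603 ± 38.4 and 548 ± 40.7 FPKM (SD, n = 3 each), with overlap.

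In ovulated oocytes, Nlrp4b was the member that passed the test between genotypes. Its level was 477, 291 and 385 CPM in the CKO libraries, against 693, 696 and 860 CPM in the WT libraries (normalised CPM, as for all levels below). Every CKO library was lower than every WT library. The log2 fold change was -0.93 (SE 0.26, adjusted p = 0.0385, edgeR quasi-likelihood test). The call was lost without CKO library 2 (-0.76, adjusted p = 0.163), CKO library 3 (-0.93, 0.102), WT library 1 (-0.98, 0.0986), WT library 2 (-1.01, 0.0738) or WT library 3 (-0.81, 0.115), and kept without CKO library 1 (-1.12, adjusted p = 0.0191). Since CPM is a share of a library, fewer Nlrp4b transcripts per oocyte and more of other transcripts cannot be told apart.

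Nlrp4a, the neighbour of Nlrp9a and Nlrp9c, was at 729, 545 and 632 CPM in ovulated CKO and 843, 886 and 866 CPM in ovulated WT libraries. Its groups did not overlap either, and the 3 WT libraries lay close together, but the log2 fold change of -0.41 (SE 0.24) did not pass the test (edgeR, adjusted p = 0.322). Within a library, the ratio of Nlrp4b to Nlrp4a in FPKM, which no scaling of whole libraries can move, was 0.822, 0.67 and 0.76 in ovulated CKO and 1.03, 0.995 and 1.21 in ovulated WT libraries. Nlrp4c had 20.8, 14.6 and 15.9 CPM in ovulated CKO and 20.2, 20.8 and 21.7 CPM in ovulated WT libraries, with overlap (log2 fold change -0.25, SE 0.28). Nlrp4e, whose knockdown in mouse zygotes has been reported to stop cleavage, had 88.7, 128 and 112 CPM in ovulated CKO and 142, 133 and 88.9 CPM in ovulated WT libraries, also with overlap (-0.11, SE 0.26).

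Among the Nlrp9 genes, Nlrp9b stood higher in every ovulated CKO library, with 206, 291 and 207 CPM, than in any ovulated WT library, with 171, 173 and 177 CPM. CKO library 2 was the highest, and the WT libraries were nearly equal. The log2 fold change of 0.47 (SE 0.24) did not pass the test (edgeR, adjusted p = 0.253). Nlrp9a had 366, 335 and 425 CPM in ovulated CKO and 418, 417 and 544 CPM in ovulated WT libraries (log2 fold change -0.26, SE 0.24), and Nlrp9c had 808, 597 and 950 CPM in ovulated CKO and 796, 765 and 977 CPM in ovulated WT libraries (-0.08, SE 0.26). Both overlapped between genotypes.

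Nlrp14 resembled Nlrp9b. It measured 1366, 1663 and 1329 CPM in ovulated CKO and 1017, 1046 and 914 CPM in ovulated WT libraries. All CKO libraries were above all WT libraries, with CKO library 2 highest. The fit gave a log2 fold change of 0.58 (SE 0.24), which did not pass the test (edgeR, adjusted p = 0.156). Without CKO library 2 and WT library 3, the ends of the component that separated the genotypes, which by construction brings the groups closer, the log2 fold changes were 0.44 for Nlrp14, 0.32 for Nlrp9b and -0.64 for Nlrp4b, and none of the 8 genes passed. Of 12 oocyte markers, 3 were called higher and none lower in ovulated CKO oocytes, where 6.44% of all genes tested were higher. The 3 were the zona pellucida genes Zp2 (604 CPM on average in CKO and 123 in WT) and Zp3 (498 and 192 CPM), and the oocyte transcription factor Figla (11.3 and 0.691 CPM). Only 6 of the 12 had a positive fold change, and their median log2 fold change was 0.02. Gdf9 (4618 and 8157 CPM) and Mos (552 and 943 CPM) averaged lower in CKO oocytes without being called.

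**Figure D2:**
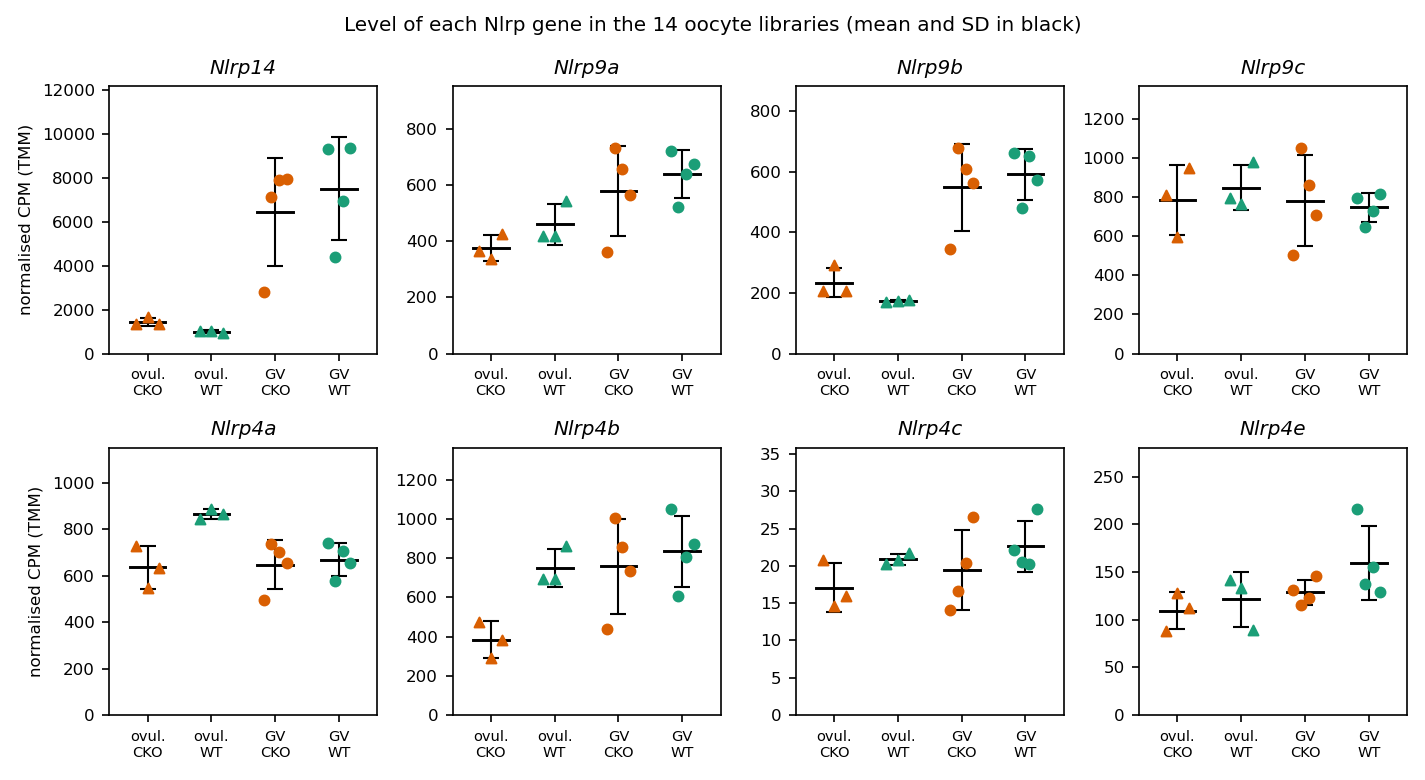
Normalised CPM (linear axis from 0, 1 scale per gene) of each Nlrp gene in the 14 libraries, 1 point per library, with group mean and SD in black; circles are GV and triangles ovulated oocytes, orange CKO and green WT. Nlrp14 and Nlrp9b are low in all ovulated libraries, and Nlrp4b is at 291 to 477 CPM in ovulated CKO and 693 to 860 CPM in ovulated WT libraries.

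Counted together at the ovulated stage, 1 of the 8 genes was lower and none higher at adjusted p under 0.05, where 1.4% of the 12010 genes tested were lower, 6.44% higher and 7.84% called in either direction. The genotypes did not overlap for 4 of the 8 (Nlrp14 and Nlrp9b higher, Nlrp4a and Nlrp4b lower), against 28.5% of all genes tested, 15.8% higher and 12.7% lower. The median log2 fold change of the 8 was -0.18, against -0.00 over all genes tested. Of the calls over all genes 82.2% were higher in CKO oocytes, a share of 92.8% when libraries were scaled by their totals alone.

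In GV oocytes none of the 8 genes separated the genotypes. No member was called, against 0.0163% of the 12298 genes tested (2 genes at adjusted p under 0.05, 819, or 6.66%, at unadjusted p under 0.05; edgeR). No member had groups that did not overlap, against 4.59% of all genes tested. DESeq2 called 57 genes and no member. Nlrp4e had the largest difference in size, with 131, 115, 123 and 146 CPM in GV CKO and 216, 138, 155 and 129 CPM in GV WT libraries. Its log2 fold change was -0.32 (SE 0.22, adjusted p = 0.763).

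Nlrp14 ranged widely within each GV group, at 2800, 7139, 7891 and 7963 CPM in GV CKO and 9288, 4409, 6919 and 9365 CPM in GV WT libraries. CKO library 1 and WT library 2, both among the libraries that stood apart, were the lowest of their groups. The log2 fold change was -0.25 (SE 0.39, adjusted p = 0.869, edgeR), -0.12 (SE 0.20) without the 3 libraries that stood apart and 0.00 (SE 0.30) without CKO library 1. Nlrp9b, with 346, 680, 609 and 563 CPM in GV CKO and 662, 481, 652 and 574 CPM in GV WT libraries, had the same lowest libraries (log2 fold change -0.13, SE 0.24). For Nlrp4a, Nlrp4b, Nlrp4c, Nlrp9a and Nlrp9c the log2 fold changes at this stage lay between -0.23 and 0.04 with SE of 0.21 to 0.29. The median of the 8 was -0.17, against 0.03 over all genes tested.

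An interaction term over all 14 libraries compared the genotype effect of both stages, (ovulated CKO minus ovulated WT) minus (GV CKO minus GV WT). None of the 8 genes was called, against 3.26% of the 13199 genes tested (edgeR, 430 called and 2052, or 15.5%, at unadjusted p under 0.05, none of them a member; DESeq2 called 889 and no member). The largest terms were -0.83 for Nlrp4b (SE 0.41, adjusted p = 0.348) and 0.77 for Nlrp14 (SE 0.49, adjusted p = 0.48), followed by 0.54 for Nlrp9b (SE 0.36, adjusted p = 0.495) and -0.40 for Nlrp4a (SE 0.32, adjusted p = 0.583). The other 4 lay between -0.17 and 0.16. The lower Nlrp4b of ovulated CKO oocytes was therefore not shown to differ from the genotype effect at the GV stage.

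From the GV to the ovulated stage, Nlrp14 and Nlrp9b fell in both genotypes. These courses use the same libraries as the genotype comparisons and are not independent of them. Each stage has its own deposited table. A stage difference therefore cannot be told apart from a difference in preparation or processing between the tables. Reverse transcription by SMART-SeqII starts from poly(A), so a shorter tail and fewer transcripts cannot be told apart. In CKO oocytes Nlrp14 averaged 1453 ± 183 CPM after ovulation (SD, n = 3), against 6448 ± 2460 CPM at the GV stage (SD, n = 4). In WT oocytes it averaged 992 ± 69.6 CPM after ovulation (SD, n = 3), against 7495 ± 2350 CPM at the GV stage (SD, n = 4). No ovulated library reached the lowest GV library of its genotype. The log2 fold change was -2.15 in CKO oocytes (SE 0.37, adjusted p = 0.000121, edgeR) and -2.92 in WT oocytes (SE 0.38, adjusted p = 4.14e-06). These leave 22.5% of the GV level in CKO and 13.2% in WT oocytes.

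Nlrp9b averaged 235 ± 48.9 CPM in ovulated CKO and 550 ± 144 CPM in GV CKO oocytes, and 174 ± 3.15 CPM in ovulated WT and 592 ± 83.8 CPM in GV WT oocytes (SD, n = 3 ovulated and 4 GV). Stages did not overlap in either genotype. The log2 fold change was -1.23 in CKO (SE 0.26, adjusted p = 0.000761, edgeR) and -1.77 in WT oocytes (SE 0.27, adjusted p = 1.72e-05). The CKO value was -0.63 (adjusted p = 0.0299) with library totals alone. Its close paralog Nlrp9c averaged 785 ± 177 CPM in ovulated CKO and 781 ± 232 CPM in GV CKO oocytes, and 846 ± 115 CPM in ovulated WT and 746 ± 75.9 CPM in GV WT oocytes (SD), with log2 fold changes of 0.01 (SE 0.27) and 0.18 (SE 0.27). The ratio of Nlrp9c to Nlrp9b in FPKM within a library was 2.13 to 4.84 in ovulated CKO and 1.31 to 1.62 in GV CKO libraries, and 4.67 to 5.88 in ovulated WT and 1.17 to 1.49 in GV WT libraries. Nlrp9a had log2 fold changes of -0.62 in CKO (SE 0.26, adjusted p = 0.0494) and -0.47 in WT oocytes (SE 0.26, adjusted p = 0.113). The Nlrp9a call in CKO oocytes was lost in 21 of 26 alternatives, some of which leave out only a WT library. Its log2 fold changes were -0.80 to -0.03 over all 26, the smallest on FPKM (-0.03) and library totals (-0.06). Stages overlapped for it in both genotypes.

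**Figure D3:**
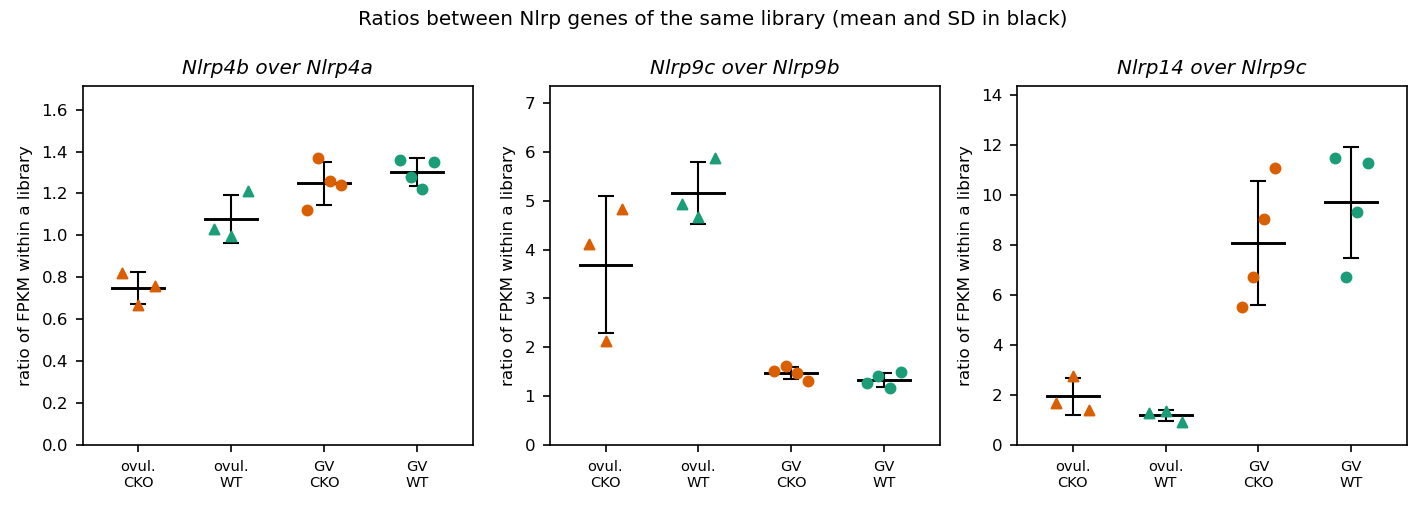
Ratio of FPKM between pairs of Nlrp genes within each library, 1 point per library (circles GV, triangles ovulated, orange CKO, green WT), with mean and SD in black; axes start at 0. Nlrp4b over Nlrp4a is 0.67 to 0.822 in ovulated CKO and 0.995 to 1.21 in ovulated WT libraries, and Nlrp9c over Nlrp9b is higher in every ovulated than in any GV library.

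Nlrp4b fell in CKO oocytes and did not pass the test in WT oocytes. It averaged 384 ± 93.1 CPM in ovulated CKO and 759 ± 241 CPM in GV CKO oocytes (log2 fold change -0.98, SE 0.30, adjusted p = 0.00965, edgeR), though the lowest GV CKO library (437 CPM) lay below the highest ovulated one (477 CPM). In WT oocytes it averaged 750 ± 95.6 CPM after ovulation and 835 ± 183 CPM at the GV stage (SD) (log2 fold change -0.15, SE 0.29, adjusted p = 0.651). The difference between these courses is the interaction above, which Nlrp4b did not pass. With library totals alone the CKO value was -0.42 (adjusted p = 0.0985), and without ovulated CKO library 2 and ovulated WT library 3 it was -0.72 (0.0746). Nlrp4a averaged 636 ± 92 CPM in ovulated CKO and 647 ± 106 CPM in GV CKO oocytes (log2 fold change -0.03, SE 0.23), and 865 ± 21.8 CPM in ovulated WT and 669 ± 70.1 CPM in GV WT oocytes (0.37, SE 0.23, adjusted p = 0.153). In WT the stages did not overlap for Nlrp4a. Nlrp4c and Nlrp4e had log2 fold changes of -0.18 and -0.23 in CKO and -0.11 and -0.39 in WT oocytes, with SE of 0.25 to 0.26.

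Over the course 4 of the 8 genes were called lower in CKO oocytes (Nlrp14, Nlrp9b, Nlrp4b and Nlrp9a), where 31.2% of the 13199 genes tested were lower and 54.4% called in either direction. In WT oocytes 2 were called lower (Nlrp14 and Nlrp9b), where 36.2% of genes were lower and 66.4% called. Stages did not overlap for 2 members in CKO (52.4% of all genes tested) and 3 in WT oocytes (68.7%). The median log2 fold change of the 8 was -0.43 in CKO and -0.27 in WT oocytes, against -0.19 and -0.17 over all genes tested. The scale matters here: with library totals alone, the median over all genes was 0.33 in CKO and 0.24 in WT oocytes, and 61.3% of called genes were higher in the CKO course and 55.1% in the WT course, against 42.6% and 45.5% with TMM. Relative to the median gene, the log2 fold changes of Nlrp14 were -1.96 in CKO and -2.75 in WT oocytes, those of Nlrp9b -1.03 and -1.60, and that of Nlrp4b in CKO oocytes -0.79. With library totals, Nlrp4a was called higher in both genotypes (0.51 in CKO and 0.80 in WT oocytes), and so was Nlrp9c (0.55 in CKO and 0.61 in WT oocytes). The scale thus decided the calls of both genes, and for Nlrp4a in CKO oocytes also the direction, which was -0.03 with TMM.

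**Figure D4:**
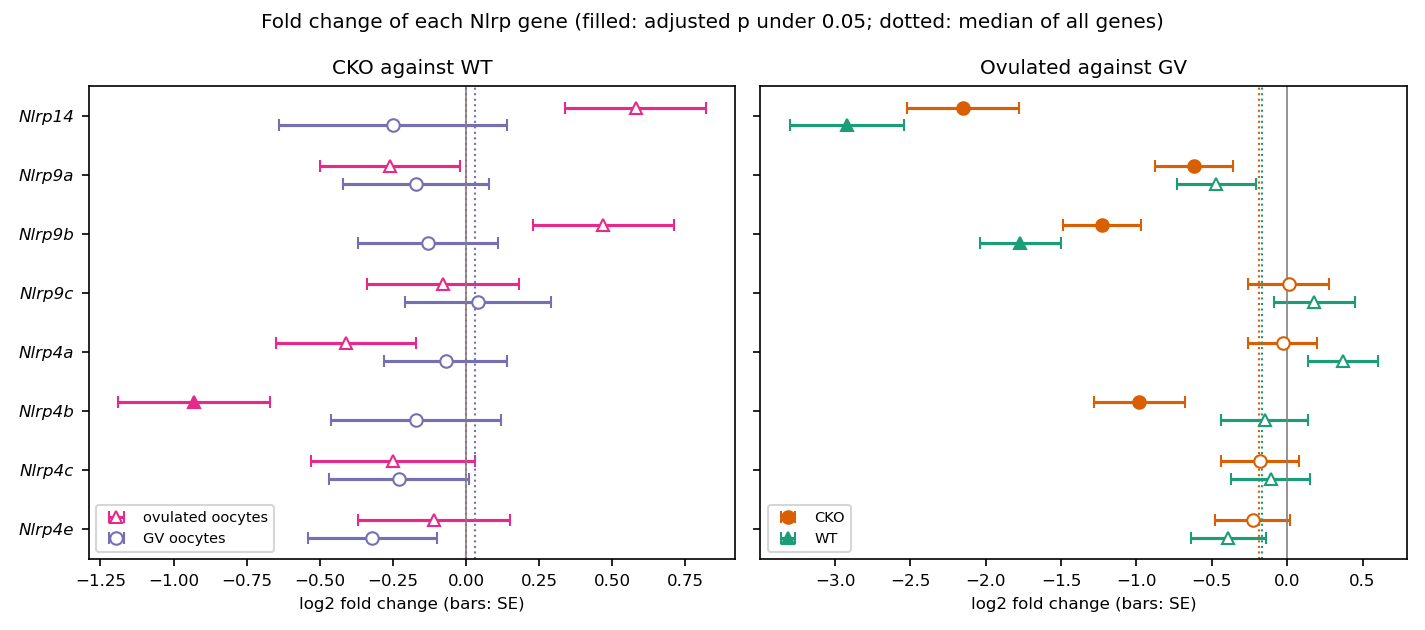
Log2 fold change of each Nlrp gene with its SE, for CKO against WT (left: triangles ovulated, circles GV) and for ovulated against GV (right: circles CKO, triangles WT); filled symbols have adjusted p under 0.05, dotted lines are the medians of all genes tested. In the course from GV to ovulated, Nlrp14 lies far left of the other members in both genotypes (-2.15 in CKO and -2.92 in WT oocytes), while Nlrp9b (-1.23 in CKO and -1.77 in WT) stands clear of Nlrp4b in WT (-0.15) and near it in CKO oocytes (-0.98).

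Levels of Nlrp14 and Nlrp9b ran closely together over the 14 libraries (Pearson r = 0.98 on log2 CPM and 0.93 on log2 FPKM), a description in which the points share their libraries, stages and scaling. Nlrp4b and Nlrp9a had r = 0.88 on log2 CPM and 0.47 on log2 FPKM. Over all pairs of members, r went down to -0.34 on log2 CPM (Nlrp4e and Nlrp9c) and to -0.84 on log2 FPKM (Nlrp4a and Nlrp14). The mean of the 8 used next thus covers members that did not all run together. The non-member genes with the pattern most like the mean of the 8 standardised members, among 8131 genes in both tables with a mean of at least 5 CPM, were LOC105245578 (r = 0.964), Cdc42 (0.958), a regulator of the actin cytoskeleton, Trim13 (0.957), Nlrp4g (0.956) and Ncbp2 (0.953), a subunit of the nuclear cap-binding complex. Nlrp4g, an Nlrp4 paralog that GENCODE M21 lists as a transcribed pseudogene, averaged 224 CPM in ovulated CKO, 365 in ovulated WT, 1028 in GV CKO and 1233 in GV WT oocytes.

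The subcortical maternal complex, a protein assembly under the egg membrane that contains other NLRP proteins, was set beside these genes as a list of 8. In ovulated oocytes 3 of its 8 genes were higher in CKO than in WT, where 6.44% of all genes tested were higher: Khdc3 (106 ± 57.7 and 18.1 ± 9.49 CPM, log2 fold change 2.58), Padi6 (491 ± 185 and 168 ± 12.1 CPM, 1.58) and Ooep (840 ± 428 and 273 ± 32.7 CPM, 1.65; SD, n = 3 each). Its median log2 fold change there was 0.66, against -0.18 for the 8 Nlrp genes. Its own NLRP members were not called there, with log2 fold changes of -0.39 for Nlrp2, -0.29 for Nlrp4f and 0.42 for Nlrp5. Over the course, 6 of its 8 genes were lower and 1, Zbed3, higher in CKO oocytes, and 7 were lower in WT oocytes, where 31.2% of all genes tested were lower in the CKO course and 36.2% in the WT course, with median log2 fold changes of -1.82 and -3.08. Its NLRP members Nlrp2, Nlrp4f and Nlrp5 had log2 fold changes of -2.51, -1.58 and -0.83 in the CKO course and -2.39, -1.50 and -1.47 in the WT course, each called. In GV oocytes none of the 8 was called between genotypes, with a median of -0.47.

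Of 6 reported partners of NLRP14, NLRP9 and NLRP4, Becn1, which encodes the autophagy protein Beclin 1, was lower in ovulated CKO oocytes, at 66.5 ± 8.87 CPM, than in ovulated WT oocytes, at 127 ± 15 CPM (SD, n = 3 each; log2 fold change -0.90, SE 0.24, adjusted p = 0.0324, edgeR). It rose over the course in both genotypes, by 1.14 in CKO and 1.66 in WT oocytes on the log2 scale. Tbk1, an innate immune kinase, was called higher in the WT course only (1.05, SE 0.25, adjusted p = 0.00139, edgeR). Uhrf1, a regulator of DNA methylation, was called higher in the CKO course only (0.77, SE 0.27, adjusted p = 0.0201, edgeR). None of the 5 partners tested was called in the interaction, so neither course was shown to differ between genotypes. Fold changes were positive for 5 of these 5 in the CKO and 4 in the WT course. Of all 13199 genes tested, 3060 were called higher in the CKO and 3994 in the WT course. Uhrf1 stood at 403 ± 36.9 CPM in ovulated CKO, 290 ± 70.6 in ovulated WT, 236 ± 67.9 in GV CKO and 276 ± 54.3 in GV WT oocytes (SD). Dhx9, the RNA helicase partner of NLRP9B, was at 1.55 to 4.09 CPM in every library, and Dtx4 at no more than 0.661 CPM.

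Genes of inflammasome adaptors and outputs were at low levels. Of 8 listed, 2 had rows in the ovulated table and 5 in the GV table, so sums are not compared between stages. They came to 0.111 to 0.857 CPM in ovulated CKO and 0.0732 to 0.599 CPM in ovulated WT libraries, and to 0.613 to 2.91 CPM in GV CKO and 0.901 to 2.13 CPM in GV WT libraries, on library totals. Il18, the interleukin that caspase 1 matures, was the gene called among them, lower in the WT course (log2 fold change -2.41, SE 1.00, adjusted p = 0.0407, edgeR) at means of 0.15 CPM in ovulated WT and 0.828 CPM in GV WT oocytes. Of 17 other NLR family genes at most 6 could be tested, and none was called between genotypes at either stage. Naip1 (29.9 ± 5.43 CPM in ovulated CKO and 74.3 ± 10.9 CPM in GV CKO, 16.1 ± 3.09 CPM in ovulated WT and 50.4 ± 12.6 CPM in GV WT oocytes, SD) and Naip5 fell over the course in both genotypes. Nlrp3, the inflammasome sensor of macrophages, averaged at most 0.0545 CPM in any group.

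How firmly reads can be assigned differs between the 8 genes. Deposited counts of Nlrp14 were whole numbers in all 14 libraries and those of Nlrp4b in 10, while Nlrp4c, Nlrp4e, Nlrp9b and Nlrp9c had no whole count (tolerance 0.001). Nlrp4c and Nlrp4e transcripts were 93.4% identical over the aligned part, Nlrp9a and Nlrp9c 88%, and Nlrp9a and Nlrp9b 84.5%, while Nlrp14 was 58% to 60.9% identical to the other members over at most 25.9% of the shorter transcript. Of all 50-base windows along the longest transcript, 36.9% in Nlrp4e, 11.9% in Nlrp4c, 6.54% in Nlrp9a, 6.22% in Nlrp9b, 4.99% in Nlrp9c and 3.04% in Nlrp4a also occurred in a transcript of another gene, and 0% in Nlrp4b and Nlrp14. For Nlrp4e these were mostly the loci Gm16443 and Gm8486, so the Nlrp4e and Nlrp4c values are uncertain. Raw counts were highest for Nlrp14, with 25657 to 186576 per library, and lowest for Nlrp4c, with 395 to 726.

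For Nlrp4a the deposited tables also differ in the length behind FPKM. The transcript length implied by its count and FPKM was 3816 to 3876 bases in ovulated CKO and 3705 to 3891 bases in ovulated WT libraries. At the GV stage it was 3889, 3040, 3127 and 3342 bases in CKO and 2927, 3705, 3244 and 3048 bases in WT libraries. The highest over the lowest value was 1.33, against 1.02 to 1.09 in the other 7 members. CKO library 1 and WT library 2, the GV libraries with ovulated-like implied lengths, were also those with the lowest Nlrp14 of their groups. On log2(FPKM + 1), the log2 fold change of Nlrp4a over the course was 0.31 in CKO and 0.57 in WT oocytes, the WT value with adjusted p = 0.0135 (limma). Counts scaled by library totals gave 0.51 in CKO and 0.80 in WT oocytes, and counts with TMM -0.03 and 0.37.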

How the data were processed

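RNA was sequenced after SMART-SeqII reverse transcription and preamplification, per the labels' protocols, which speak of single-cell samples; how many oocytes made a library is not stated. The authors deposited expected counts per gene, which are estimated and not always whole (17.6% of GV and 18.3% of ovulated values above 0 were not whole, tolerance 0.001), and FPKM, also computed by the authors, in 1 table per stage. The submitters' processing notes name the build mm10. Aligner and quantifier: not given in the sources used here.

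Counts were rounded. Genes were filtered with filterByExpr, normalised with TMM and tested with edgeR 4.0.16 (robust quasi-likelihood, Benjamini-Hochberg adjustment over all genes, threshold 0.05) in R 4.3.3. CKO was compared with WT within each table; the course and the interaction came from 1 fit of the 4 groups over genes in both tables, since the tables were deposited separately. Levels are CPM from that fit. SE is the log2 fold change divided by the square root of F. FPKM was used to compare genes. The test was also run on simulated data with planted fold changes larger than most of those of the members, and without libraries that stood apart. That run does not show how well smaller fold changes are found. The 8 members and all gene lists were chosen with earlier results of these data known. All 8 members are described; from each list up to 3 called genes with the smallest p were named, and the 5 genes most like the members. Zbed3, Nlrp2, Nlrp4f and Nlrp5, and levels of genes not called, were chosen after their values were seen.

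Alternatives were DESeq2 1.42.0, limma 3.58.1 (voom with quality weights, and limma-trend on log2(FPKM + 1) and log2(FPKM + 0.1)), RLE size factors, testing unfiltered genes or those averaging 10 CPM or more, a replicate block, removal of a trend with transcript length, leaving out each library, and leaving out those that stood apart. Scaling by library totals was added after seeing the data. Promoters came from RefSeq and transcripts from GENCODE M21 (both GRCm38.p6), aligned with Biopython 1.88. The motif CCAATCACATGG was chosen after seeing the sequences. Protein sequences were not used here.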

Additional observations from a re-analysis of the deposited data

Results flagged for a closer look

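Nlrp14 in GV CKO library 1 stood far from the other 3 libraries of its group, at 2800 CPM, against 7139, 7891 and 7963 CPM. Its gap to the nearest library was 0.840 of the range of the group, above the critical value of 0.829 for 4 samples. Both ends of 16 groups of GV libraries were examined, and 1 was flagged; chance alone flags about 1 in 20 groups. The same library was the farthest out on the first principal component of the GV libraries and had the smallest share of counts in its 100 most abundant genes, at 35.2%. Without it the log2 fold change of Nlrp14 between GV CKO and GV WT oocytes was 0.00.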

How the results depend on the processing

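The fall of Nlrp14 and of Nlrp9b over the course was called in all 26 alternatives in each genotype. Their log2 fold changes ran from -2.46 to -1.52 and from -1.42 to -0.63 in CKO oocytes, and from -3.12 to -2.42 and from -1.96 to -1.33 in WT oocytes. For each course the alternatives include leaving out single libraries of the other genotype. Those act on the fold change only through scaling and filtering, and on the test also through the shared spread, so they are weak checks. Of 928 member values, 801 kept direction and side of the threshold, 35 lost a call, 13 gained one and 79 changed sign. The one sign change that was called is Nlrp4a in the CKO course on library totals (0.51, adjusted p = 0.0318). Unless stated, the cause of a change was not tested.

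In ovulated oocytes Nlrp4b lost its call in 10 of 18 alternatives and ranged from -1.12 to -0.64. The count of members called there was 0 on both FPKM scales, library totals, the 4-group fit and without the 2 libraries farthest out, and 0 to 1 on leaving out 1 library. Over the WT course 4 members were called with at least 10 CPM, all lower, with Nlrp4e and Nlrp9a added to Nlrp14 and Nlrp9b. On both FPKM scales and on library totals 4 were also called, but 2 of them higher (Nlrp4a and Nlrp9c) and 2 lower. Over the CKO course 2 were called without the 2 ovulated libraries farthest out and 3 to 4 on leaving out 1.

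Genes called in GV oocytes (2) numbered 4 without a filter, with the length trend removed and in the 4-group fit, 57 with DESeq2, 114 with voom weights, 63 without the 3 libraries apart and 2 to 5 on leaving out 1. In ovulated oocytes (942) they numbered 506 at 10 CPM or more, which tests fewer genes, 1593 with DESeq2, 1953 with voom weights, 546 on log2(FPKM + 1), 1595 in the 4-group fit, 235 without 2 libraries and 341 (without CKO library 2) to 1652 (without CKO library 1) on leaving out 1. For the interaction (430) they numbered 889 with DESeq2, 660 with voom weights, 94 and 191 on log2(FPKM + 1) and log2(FPKM + 0.1), 236 on library totals, 229 without 3 GV and 157 without 2 ovulated libraries, and 129 to 1006 on leaving out 1. At 10 CPM or more the WT course gave 5155 (8769) and the CKO course 4458 (7183); leaving out 1 library gave 8188 to 8971 and 6307 to 7440. The share of called genes that were higher in ovulated CKO oocytes was 82.2%, 94% and 93.9% on the FPKM scales and 66.7% with the length trend removed; in the CKO course it was 42.6%, 59.3% and 58.5%, and 52.8%.

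Deviations of same-numbered libraries had correlations of -0.34, 0.24, 0.05 and 0.45 in GV and 0.08, 0.02 and 0.20 in ovulated oocytes. For some CKO libraries the same-numbered WT library was the best match, and for others it was not. With so few libraries per group, these values cannot decide whether same-numbered libraries belong together. With the replicate block 2, 1630, 262, 8576 and 6877 genes were called in GV and ovulated oocytes, the interaction, the WT course and the CKO course, with 65.5% higher in ovulated oocytes; GV CKO 1 correlated best with GV WT 2 (0.57).

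The values that changed sign follow. In GV oocytes Nlrp4a was 0.02 on FPKM and 0.06 on library totals (-0.12 to 0.02 on leaving out 1), Nlrp9c was -0.01 without 3 libraries (-0.09 to 0.19), and leaving out 1 gave -0.28 to 0.01 for Nlrp4b, -0.21 to 0.02 for Nlrp9b and -0.42 to 0.00 for Nlrp14. In ovulated oocytes Nlrp9c was 0.01 at 10 CPM, 0.10 with voom and FPKM, 0.11 on totals and 0.22 without 2 libraries (-0.24 to 0.09), and Nlrp4e 0.09 on FPKM and 0.08 on totals (-0.28 to 0.03). In the interaction Nlrp4c was 0.01 with RLE and DESeq2, 0.00 without a filter, 0.08 at 10 CPM, 0.03 and 0.04 on FPKM, 0.06 on totals and 0.14 without 2 libraries (-0.23 to 0.12). Nlrp9a was 0.00 at 10 CPM and on FPKM and 0.15 without 2 libraries (-0.32 to 0.09), Nlrp4e -0.08 (-0.02 to 0.29) and Nlrp9c 0.19 (-0.34 to 0.04) without 2. In the WT course Nlrp9c was -0.01 at 10 CPM, Nlrp4b 0.29 on FPKM and 0.30 on totals, Nlrp4c 0.28 and 0.32 on FPKM, 0.03 with the block and 0.31 on totals, and Nlrp4e 0.06 on totals. In the CKO course Nlrp4a was 0.09 with RLE and DESeq2, 0.12 without a filter, 0.31 on FPKM, 0.51 on totals and 0.16 without 2 libraries (-0.14 to 0.07). Nlrp4c was 0.31 and 0.36 on FPKM, 0.37 on totals and 0.00 without 2 (-0.35 to 0.00), Nlrp4e 0.27 on FPKM and 0.29 on totals, and Nlrp9c -0.04 at 10 CPM and -0.01 without 3 GV libraries (-0.16 to 0.18).

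The lowest counts were those of Nlrp4c, at 395 to 726 per library, and its SE (0.28 in ovulated and 0.24 in GV oocytes between genotypes) was like that of members with far more counts, such as Nlrp9a (0.24 and 0.25). Leaving out the 2 ovulated libraries farthest out removes the ends of the component that separated the genotypes.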
